A study of Mus musculus with 6 samples.

Results

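Expression of 5 genes of the local angiotensin system, Agt, Agtr1a, Agtr2, Ace and Enpep, was examined in differentiating C3H10T1/2 cells, out of 55401 genes in the count table. The group was chosen because the Agt transcript had one of the largest rises from day 0 to day 7, and the other genes were added by name as the receptors and peptidases of the same hormone system. The rise of Agt is therefore what selected these genes, and it is given in every line as a description without a test. C3H10T1/2 cells are mouse mesenchymal cells of embryonic origin that give rise to bone, cartilage, fat or muscle in culture. The libraries came from cells of this line carrying a control short hairpin RNA (shControl, labelled as wild-type), a hairpin that targets Nfib (shNFIB, NFIB knockdown) or a hairpin that targets Kmt2a, which encodes MLL1 (shMLL1, MLL1 knockdown). Each of the 3 lines was harvested before induction at day 0 and after 7 days in osteogenic medium, which supplied dexamethasone at 0.1 μM, ascorbic acid 2-phosphate at 100 μg/ml and β-glycerophosphate at 20 mM. NFIB is a transcription factor of the nuclear factor I family and MLL1 is a histone H3 lysine 4 methyltransferase, and the series asked how the transcriptome of osteogenic cells depends on them. With 6 conditions and 6 libraries, no single condition has a replicate. The libraries held 21608680 to 34774066 counted reads. Each targeted gene was lowest in its own line. Nfib was at 116 and 83.5 CPM at day 0 and day 7 in shControl cells and at 35.3 and 8.15 CPM in shNFIB cells, and Kmt2a was at 74.7 and 66.3 CPM in shControl cells and at 30.9 and 34.8 CPM in the shMLL1 line, where CPM are read counts divided by library size after TMM scaling (the trimmed mean of M-values).

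Angiotensinogen, the product of Agt, is the only precursor of the angiotensins. Renin cleaves it to angiotensin I, and angiotensin-converting enzyme (Ace) trims angiotensin I to angiotensin II, which acts on the type 1 receptor (Agtr1a and, in rodents, Agtr1b) and on the type 2 receptor (Agtr2). Glutamyl aminopeptidase (Enpep, aminopeptidase A) takes the first residue from angiotensin II to give angiotensin III. Liver supplies most circulating angiotensinogen, fat and other tissues make it locally, and Agt is a textbook target of glucocorticoids.

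The promoters of Agt and Enpep, the only members with more than a few reads, are shown because NFIB was depleted in these cells and its family recognizes the letters TTGGC. Each sequence covers 250 bases before and 50 after the RefSeq transcript start on GRCm38.p6, is read 5′ to 3′ on the gene's own strand, and has every TTGGC, on either strand, in capitals. The Agt window lies at chr8:124569657-124569956 and the Enpep window at chr3:129332700-129332999, both on the minus strand.
Agt: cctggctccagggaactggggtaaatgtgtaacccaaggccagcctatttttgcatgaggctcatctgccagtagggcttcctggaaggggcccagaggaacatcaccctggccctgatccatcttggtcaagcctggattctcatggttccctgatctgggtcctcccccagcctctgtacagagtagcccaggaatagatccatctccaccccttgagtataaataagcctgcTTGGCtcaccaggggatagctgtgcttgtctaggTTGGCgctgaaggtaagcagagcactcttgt
Enpep: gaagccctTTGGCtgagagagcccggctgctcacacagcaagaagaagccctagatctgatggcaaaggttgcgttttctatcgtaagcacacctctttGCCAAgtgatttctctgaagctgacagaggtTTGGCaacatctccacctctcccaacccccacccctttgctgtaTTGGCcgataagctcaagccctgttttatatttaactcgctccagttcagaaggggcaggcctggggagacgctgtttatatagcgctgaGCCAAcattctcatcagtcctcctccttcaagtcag
The Agt window holds 2 matches to TTGGC, which start 15 bases before and 19 bases after the start site, and 1 match to the TATA box letters TATAAA on the gene strand, 30 bases before it. The Enpep window holds 5 matches to TTGGC and none to TATAAA. Of 32851 mouse promoter windows of the same length, 14.4% hold at least 2 matches to TTGGC, 0.158% at least 5, and 8.32% at least 1 match to TATAAA. Neither window holds the glucocorticoid receptor letters TGTTCT on either strand, which 19.0% of all windows do. These matches describe the letters and are not evidence of binding. Promoter windows were found for 4 of the 5 genes. The Agtr2 window (chrX:21484374-21484673) and the first of 2 Ace windows (chr11:105967698-105967997) had no match to TTGGC, and the second Ace window (chr11:105974939-105975238) had 4.

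Agt expression was close to zero in undifferentiated cells and became high in all 3 lines after 7 days. Agt (ENSMUSG00000031980, GRCm38 chr8:124556534-124569706, minus strand, with no overlapping gene annotated) went from 16 to 2604 reads in shControl cells, or 0.501 to 85.4 CPM. In shNFIB cells it went from 5 to 3328 reads, or 0.158 to 113 CPM. In shMLL1 cells it went from 1 to 3966 reads, or 0.0331 to 163 CPM. The line with the fewest reads at day 0, shMLL1, had the most at day 7.

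**Figure D1:**
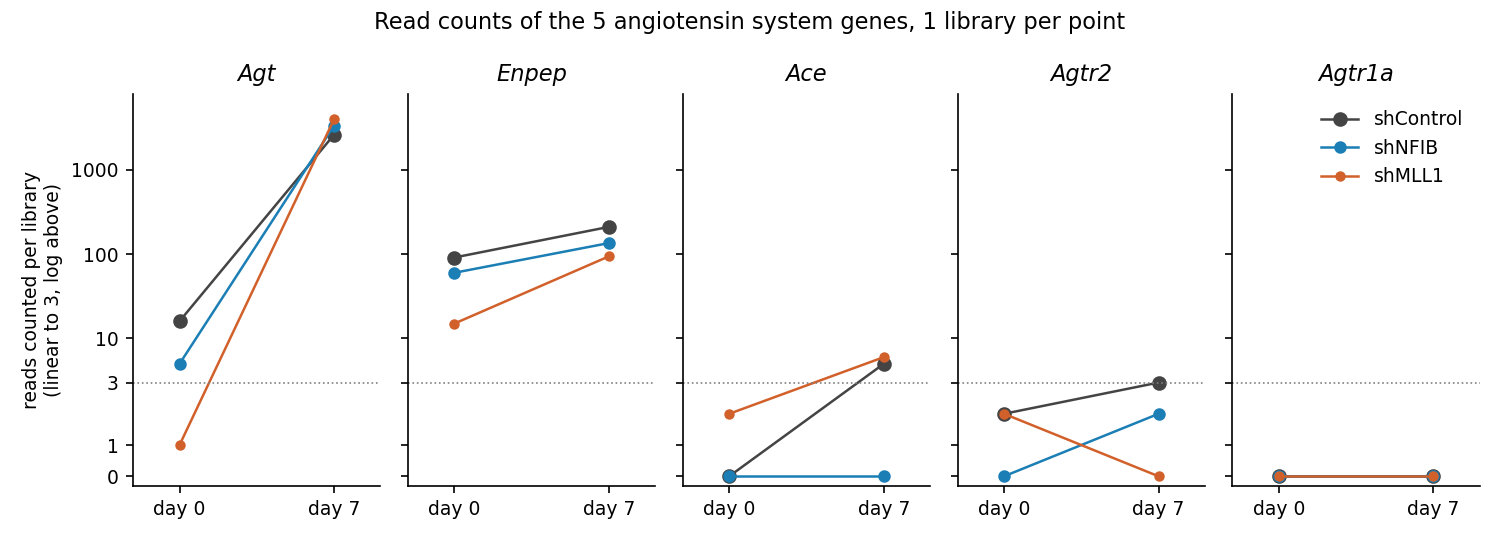
Reads counted for each of the 5 genes (panels) at day 0 and day 7 in shControl, shNFIB and shMLL1 cells, with 1 library per point; the y axis is linear up to 3 reads, the dotted floor, and logarithmic above. Agt goes from at most 16 reads at day 0 to between 2604 and 3966 at day 7, Enpep lies between 15 and 210 reads, and the other genes have at most 6.

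The log2 ratio of day 7 over day 0 for Agt was 7.41 in shControl cells, with a 95% counting interval of 6.71 to 8.22, which is a 171-fold rise. It was 9.47 (8.25 to 11.10) in shNFIB cells and 12.26 (9.78 to 17.56) in shMLL1 cells, where the lower library held a single read. These intervals are exact and cover counting error only. The log2 fold change fitted with the line as a block was 8.98 over all 3 lines and 10.35 over the shNFIB and shMLL1 lines. Agt passed the filter on low counts only through the day 7 libraries. At day 7, Agt ranked 2440 by CPM among the genes with a read in shControl cells, 2043 in shNFIB cells and 932 in shMLL1 cells. Per kilobase of exon, it stood at 45.2, 59.5 and 86.0 CPM in these libraries.

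Enpep was the only other member with more than 6 reads, and it too was higher at day 7 in each line. Enpep (ENSMUSG00000028024, chr3:129269175-129332720, minus strand, overlapped by the pseudogene Gm42628 with at most 4 reads) had 91 and 210 reads at day 0 and day 7 in shControl cells, or 2.85 and 6.89 CPM. It had 60 and 135 reads in shNFIB cells, or 1.90 and 4.57 CPM, and 15 and 94 reads in shMLL1 cells, or 0.497 and 3.85 CPM. The shControl library of day 0, at 2.85 CPM, came close to the shMLL1 library of day 7, at 3.85 CPM. The log2 ratio was 1.27 (95% counting interval 0.91 to 1.65) in shControl, 1.27 (0.82 to 1.73) in shNFIB and 2.95 (2.16 to 3.85) in shMLL1 cells. Over the 3 lines Enpep rose by 1.76 on the log2 scale (SE 0.44, adjusted p = 0.0228, edgeR's quasi-likelihood test, higher in 3 of 3 lines), where 16.8% of the 16660 genes tested were called higher and 16.6% lower. The call was lost without the shControl line (2.01, SE 0.60, adjusted p = 0.0666) and without the line as a block (1.54, adjusted p = 0.0945). Per kilobase of exon, Enpep at day 7 stood at 0.818 to 1.46 CPM, against 45.2 to 86.0 for Agt.

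The receptors and the converting enzyme were at or near the limit of detection. Agtr1a (ENSMUSG00000049115, chr13:30336441-30382867, plus strand, with the intronic gene Gm48161 at 9 to 14 reads) had 0 reads in all 6 libraries, which allows up to 3 reads, or 0.0939 to 0.123 CPM depending on the library. Agtr2 (ENSMUSG00000068122, chrX:21484544-21489164, plus strand) had 2 and 3 reads at day 0 and day 7 in shControl cells, 0 and 2 in shNFIB cells and 2 and 0 in shMLL1 cells. Ace (ENSMUSG00000020681, chr11:105967945-105989964, plus strand, overlapped by the antisense gene Gm11651 with at most 2 reads) had 0 and 5 reads in shControl cells, 0 and 0 in shNFIB cells and 2 and 6 in shMLL1 cells. No difference in these genes was detectable at this depth, and only 2 of the 5 members passed the filter on low counts. By the ratio of single libraries, Agt and Enpep were over 2-fold higher at day 7 in shControl, shNFIB and shMLL1 cells, where 23.0%, 16.6% and 25.8% of all genes with at least 10 reads in either library were. None of the members was over 2-fold lower, as 14.9%, 13.9% and 19.9% of all genes were. For Agt these counts only restate how it was selected. In bulk RNA a gene read in fewer cells and a gene with less RNA per cell cannot be told apart.

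In the NFIB and MLL1 knockdown libraries the day 7 level of Agt was above that in shControl cells. At day 7, Agt was at 113 CPM in shNFIB and 163 CPM in shMLL1 cells against 85.4 CPM in shControl cells, log2 ratios of 0.40 (0.32 to 0.47) and 0.93 (0.86 to 1.00). At day 0 both knockdown libraries were lower than the shControl library, with log2 ratios of -1.66 (-3.46 to -0.15) for 5 against 16 reads and -3.92 (-9.31 to -1.23) for 1 against 16 reads. The lines therefore stood in opposite order at the 2 days. In the fit over both days, which gives 1 value for these opposite differences, Agt differed by -0.23 in shNFIB cells (SE 0.70, adjusted p = 0.923) and by 0.06 in shMLL1 cells (SE 0.74, adjusted p = 0.991) in edgeR's quasi-likelihood test. The fitted value is not the plain mean of the ratios at the 2 days. Between the knockdown lines, shMLL1 against shNFIB, the difference was 0.29 (SE 0.65, adjusted p = 0.831). The day 7 response of Agt was larger than in shControl cells by 2.06 on the log2 scale in shNFIB cells (95% counting interval 0.54 to 3.87) and by 4.85 in shMLL1 cells (2.16 to 10.24). These differences rest on 16, 5 and 1 reads at day 0. Between shMLL1 and shNFIB cells the response differed by 2.79, with an interval of -0.37 to 8.35 that includes 0.

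Enpep was lower in both knockdown lines than in shControl cells at both days. In shNFIB cells the log2 ratio was -0.58 (-1.08 to -0.10) at day 0 and -0.59 (-0.92 to -0.27) at day 7. In shMLL1 cells it was -2.52 (-3.41 to -1.72) at day 0, for 15 against 91 reads, and -0.84 (-1.21 to -0.48) at day 7. Neither line differed beyond the spread between lines and days in edgeR's quasi-likelihood test, with -0.59 in shNFIB cells (SE 0.51, adjusted p = 0.676) and -1.52 in shMLL1 cells (SE 0.53, adjusted p = 0.434). Shown side by side, shMLL1 against shNFIB gave -0.93 (SE 0.53, adjusted p = 0.365). The day 7 response of Enpep in shNFIB cells was within counting error of that in shControl cells, with a difference of -0.01 (-0.60 to 0.59), and in shMLL1 cells it was larger by 1.68 (0.79 to 2.65).

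At day 0, 1 member was over 2-fold different between shNFIB and shControl cells (Agt), as were 13.7% of all genes, and 2 members differed between the shMLL1 and shControl libraries (Agt and Enpep), as did 20.5% of all genes. At day 7, 0 members passed 2-fold in either knockdown line, where 21.4% and 15.7% of all genes did. In the fits over both days 0 members were called in any of the 3 comparisons of lines, where 0.378% of all genes were called for shNFIB against shControl, 0.0300% for shMLL1 against shControl and 0.480% for shMLL1 against shNFIB. At an unadjusted p under 0.05, 1 member, Enpep in shMLL1 against shControl cells, passed edgeR's quasi-likelihood test, as did 1555 of all 16660 genes tested. DESeq2 called 0 members, and the number of all genes that its test called is given with the processing alternatives below.

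**Figure D2:**
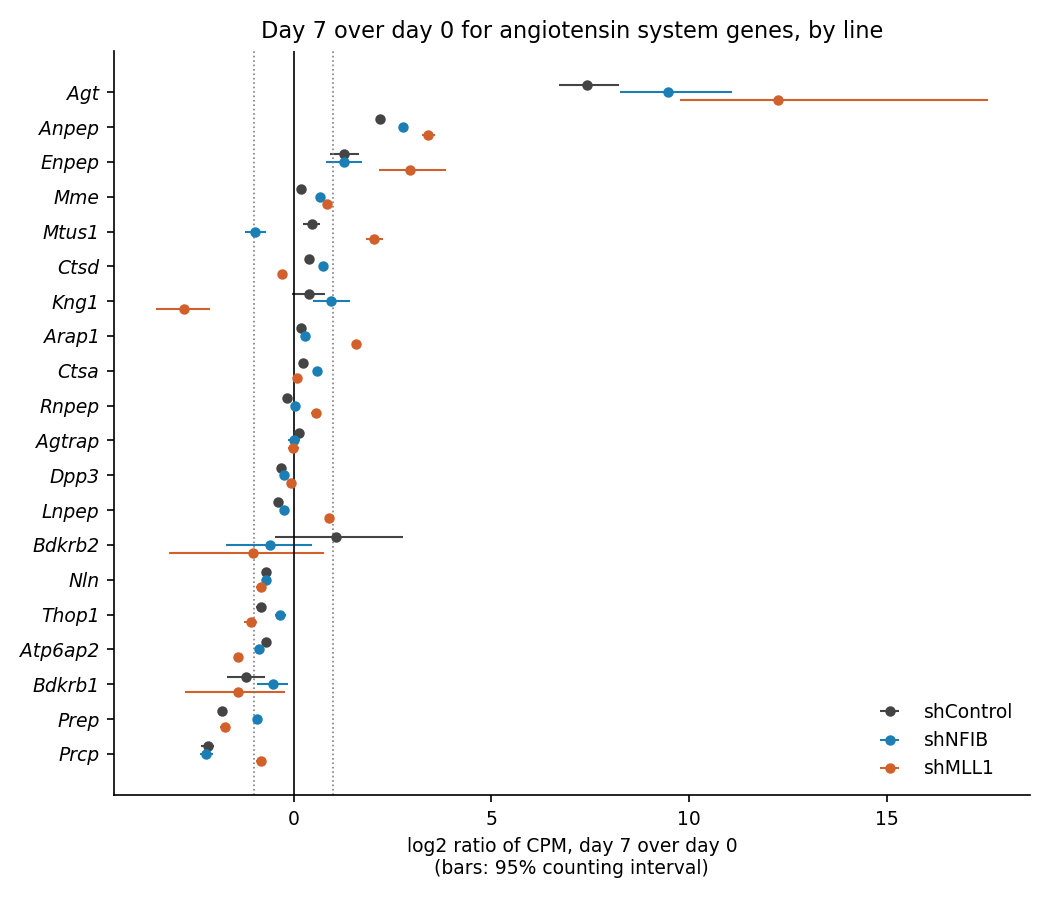
Log2 ratio of CPM at day 7 over day 0 (x axis) for Agt, Enpep and the 18 other angiotensin system genes with at least 10 reads in every line's pair of libraries (y axis), with 1 point per line and bars for the 95% counting interval; dotted lines mark 2-fold. Agt lies between 7.41 and 12.26, to the right of every other gene drawn, Anpep and Enpep are to the right of 2-fold in each line, and Prcp and Prep have the lowest medians over the lines, while the lowest single point is Kng1 in shMLL1 cells at -2.76.

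The other genes of the angiotensin system were examined as a list of 27 genes, of which 20 had at least 10 reads in a library and 19 were tested. Over the 3 lines, 1 of them rose and 5 fell at day 7, where 16.8% of all genes tested were called higher and 16.6% lower, with a median log2 fold change of 0.05 against 0.00088 over all genes tested. Over the 2 knockdown lines alone, 1 rose and 2 fell, where 6.09% of the 15867 genes tested were called higher and 6.78% lower.

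Of the enzymes that form angiotensin I and II, renin (Ren1) and cathepsin G (Ctsg) had 0 reads in every library. Chymase (Cma1) had at most 3 reads, apart from 16 in shMLL1 cells at day 0. Cathepsin D (Ctsd), a lysosomal protease that can release angiotensin I from angiotensinogen, was among the most abundant at 622 to 1323 CPM over the 6 libraries, and changed by 0.29 on the log2 scale (SE 0.29, adjusted p = 0.460). The prorenin receptor (Atp6ap2), which is also an accessory subunit of the vacuolar proton pump, fell by 0.99 (SE 0.22, adjusted p = 0.0169), from between 257 and 309 CPM at day 0 to between 117 and 158 CPM at day 7.

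Of the aminopeptidases that act after Enpep, Anpep (aminopeptidase N, which converts angiotensin III to angiotensin IV) rose. It went from 1148 to 4945 reads in shControl cells, from 1150 to 7348 in shNFIB cells and from 340 to 2918 in shMLL1 cells. The log2 fold change was 2.78 over the 3 lines (SE 0.28, adjusted p = 0.00102) and 3.04 over the knockdown lines (SE 0.35, adjusted p = 0.00163). Lnpep, a membrane aminopeptidase that binds angiotensin IV, differed by 0.08 (adjusted p = 0.845) and Rnpep (aminopeptidase B) by 0.14 (adjusted p = 0.636).

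The peptidases that shorten angiotensins toward angiotensin-(1-7) or degrade them include 4 genes that fell and 3 that did not pass the test. Of all genes tested, 16.6% were called lower, and these peptidases are only part of the list counted above. Prcp, a prolylcarboxypeptidase that removes the last residue of angiotensin II, went from 1797 to 381 reads in shControl, 1704 to 346 in shNFIB and 1494 to 686 in shMLL1 cells, and fell by 1.73 over the 3 lines (SE 0.31, adjusted p = 0.00811). Prep (prolyl endopeptidase) fell by 1.49 (SE 0.24, adjusted p = 0.00520). The related metalloendopeptidases Thop1 and Nln fell by 0.75 (adjusted p = 0.0362) and 0.73 (adjusted p = 0.0197). Over the knockdown lines alone, Prcp fell by 1.55 (adjusted p = 0.0385) and Prep by 1.37 (adjusted p = 0.0407), while Thop1, Nln and Atp6ap2 did not pass (adjusted p = 0.176, 0.122 and 0.0774). In that fit 6.78% of all genes tested were called lower. Neprilysin (Mme), which also forms angiotensin-(1-7), differed by 0.56 (SE 0.22, adjusted p = 0.0815), Dpp3 by -0.21 (adjusted p = 0.377) and the lysosomal carboxypeptidase Ctsa by 0.31 (adjusted p = 0.296). The mast cell carboxypeptidase Cpa3 had at most 2 reads.

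The receptors and receptor-associated genes were low or did not pass the test. Agtr1b had 0 reads in every library, and Mas1, the receptor of angiotensin-(1-7), had at most 20 (log2 difference 1.17, SE 0.69, adjusted p = 0.222). Mrgprd, a receptor of a related peptide, had at most 4. Agtrap, which binds the type 1 receptor, was at 21.9 to 42.0 CPM and differed by 0.05 (adjusted p = 0.847). Mtus1, whose product binds the type 2 receptor, differed by 0.51 (adjusted p = 0.480) and Arap1 by 0.68 (adjusted p = 0.119). Of the kinin genes, which share Ace as a degrading enzyme, the tissue kallikrein Klk1 had at most 1 read. The bradykinin receptors Bdkrb1 and Bdkrb2 differed by -0.99 (adjusted p = 0.0771) and -0.18 (adjusted p = 0.849), and kininogen (Kng1) by -0.34 (adjusted p = 0.742).

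By single libraries, 2 pathway genes were over 2-fold higher and 3 lower at day 7 in shControl cells, 1 and 1 in shNFIB cells, and 3 and 7 in shMLL1 cells. Of all genes with at least 10 reads in either library, 23.0% were higher and 14.9% lower in shControl cells. The shares were 16.6% and 13.9% in shNFIB and 25.8% and 19.9% in shMLL1 cells. Anpep was among the pathway genes over 2-fold higher in each line. Its day 7 response in shMLL1 cells was 1.23 larger than in shControl cells (95% counting interval 1.05 to 1.42). The fall of Prcp was smaller in shMLL1 than in shControl cells, by 1.35 on the log2 scale (interval 1.14 to 1.56).

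**Figure D3:**
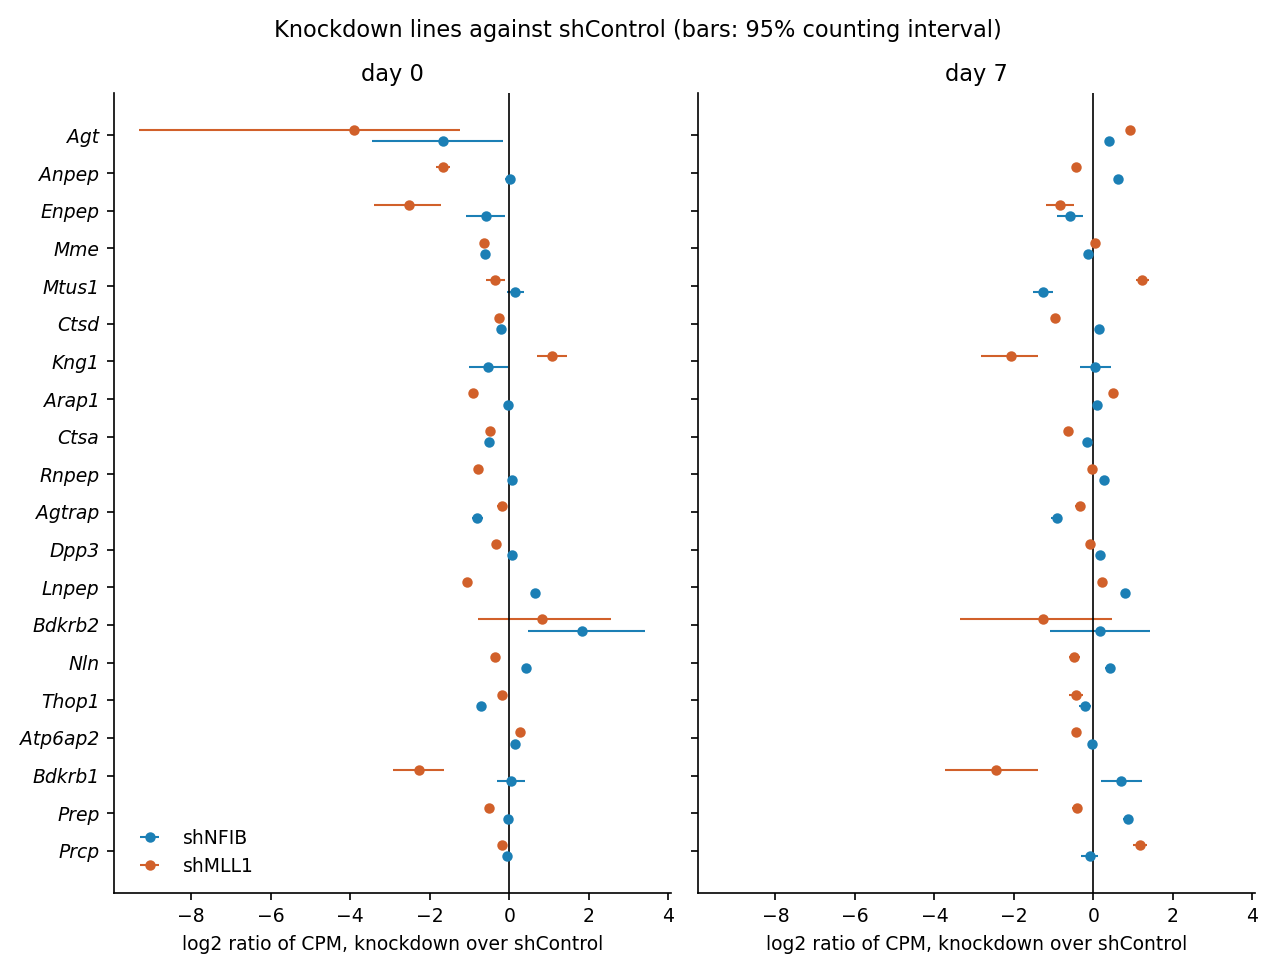
Log2 ratio of CPM in shNFIB or shMLL1 cells over shControl cells (x axes) at day 0 (left) and day 7 (right) for the same 20 genes (y axis), with bars for the 95% counting interval. Agt lies left of 0 in both knockdown lines at day 0 and right of 0 at day 7, whereas Enpep lies left of 0 in all 4 comparisons.

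Against shControl cells, 1 pathway gene was over 2-fold different in shNFIB cells at each day, Bdkrb2 at day 0 (6 and 21 reads) and Mtus1 at day 7 (453 and 182 reads). Of all genes with at least 10 reads in either library, 13.7% and 21.4% were. In shMLL1 cells there were 6 pathway genes at each day, where 20.5% and 15.7% of all genes were over 2-fold different. Anpep (-1.67, -1.85 to -1.50), Lnpep (-1.07) and Bdkrb1 (-2.26, -2.93 to -1.65) were lower and Cma1, Mas1 and Kng1 higher at day 0. At day 7, Prcp (1.17, 0.99 to 1.35), Mas1 and Mtus1 (1.23, 1.07 to 1.40) were higher and Bdkrb1 (-2.46, -3.74 to -1.38), Bdkrb2 and Kng1 lower. In edgeR's quasi-likelihood fit over both days 0 of the 19 genes passed in any comparison of lines. At an unadjusted p under 0.05 there was 1 for shNFIB against shControl (Agtrap), 2 for shMLL1 against shControl (Anpep and Bdkrb1) and 7 for shMLL1 against shNFIB. Of all 16660 genes tested, 2093, 1555 and 3303 passed at that level in the same order. DESeq2 called 1, 1 and 2 of the pathway genes. The number of all genes that its test called is given with the processing alternatives below.

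Genes that respond to angiotensin II in other cells, a list of 14, were also read out. The list had no common direction. Of 13 tested over the 3 lines, 3 rose and 3 fell, with a median of -0.76 against 0.00088 over all genes tested. Of all genes tested, 16.8% were called higher and 16.6% lower. The immediate early genes Fos, Nr4a1 and Egr1 rose by 2.49, 1.35 and 1.06 (adjusted p = 0.00362, 0.00602 and 0.00800), and passed over the knockdown lines as well. Fos went from 42 to 185 reads in shControl, 16 to 104 in shNFIB and 24 to 113 in shMLL1 cells. The oxidase Nox4 fell by 1.48 (adjusted p = 0.00555), the growth factor Hbegf by 2.31 (adjusted p = 0.0251) and the matrix-associated Ccn2 by 0.89 (adjusted p = 0.0172), of which Hbegf and Ccn2 did not pass over the knockdown lines (adjusted p = 0.0820 and 0.0643). Tgfb1 (-0.76, adjusted p = 0.0618), Il6 (-2.63, 0.0669), Spp1 (1.02, 0.159), Ccl2 (-1.03, 0.385), Edn1 (-0.0042, 0.994) and Rcan1 (0.16, 0.640) did not pass, with adjusted p in parentheses, and Cyba had at most 4 reads. Spp1 belongs to the osteoblast list as well. In single libraries at day 7 Spp1 was at 42101 reads in shControl cells but at 6682 in shNFIB and 7406 in shMLL1 cells.

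The mineralocorticoid axis lies downstream of angiotensin II in the adrenal gland. Its steroid-forming enzymes Cyp11a1, Cyp11b1 and Cyp11b2 had 0 reads throughout. Hsd11b2, which inactivates glucocorticoids, had 3 and 23, 1 and 7, and 6 and 25 reads at day 0 and day 7 in shControl, shNFIB and shMLL1 cells. It passed the filter on low counts only through the day 7 libraries and was not tested over the knockdown lines. Hsd11b1, which regenerates active glucocorticoid, differed by 1.34 (SE 0.74, adjusted p = 0.194), and the mineralocorticoid receptor Nr3c2 by -0.59 (adjusted p = 0.349). Sgk1, a kinase induced by both classes of steroid, rose by 3.48 (SE 0.21, adjusted p = 0.000452).

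Of 11 genes known to control Agt transcription, 8 were tested, of which 2 fell and the others did not pass, where 16.6% of all genes tested were called lower. The glucocorticoid receptor Nr3c1 went from 145 to 44.5 CPM in shControl, from 172 to 102 in shNFIB and from 108 to 74.3 in shMLL1 cells, and fell by 0.99 (SE 0.26, adjusted p = 0.0285), a call that was lost over the knockdown lines (-0.69, adjusted p = 0.179). Cebpb fell by 1.35 (SE 0.22, adjusted p = 0.00538) and by 1.37 over the knockdown lines (adjusted p = 0.0421). Stat3 (-0.0082), Usf1 (-0.0042), Rela (-0.49), Cebpa (-0.63) and Cebpd (0.35) had adjusted p between 0.0708 and 0.989, and the hepatic factor Hnf4a had 0 reads. Their part in the rise of Agt was not tested.

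Most genes of the glucocorticoid response were higher at day 7 in every line. The medium of the day 7 cells contained dexamethasone, a synthetic glucocorticoid, beside ascorbic acid 2-phosphate and β-glycerophosphate. Time in culture, this steroid and the rest of the osteogenic medium cannot be told apart. Of 10 genes, 9 rose over the 3 lines and the same 9 over the knockdown lines, where 16.8% and 6.09% of all genes tested were called higher. In each line 9 were over 2-fold higher, as were 23.0% of all genes in shControl, 16.6% in shNFIB and 25.8% in shMLL1 cells. Among the 9, Zbtb16 had 0 reads in every day 0 library and passed the filter on low counts only through day 7. The median was 2.69 over the 3 lines, against 0.00088 over all genes tested. Tsc22d3, an immune-suppressive leucine zipper gene, went from 59.5 to 428 CPM in shControl, from 60.8 to 411 in shNFIB and from 75.3 to 1181 in shMLL1 cells. Fkbp5, a co-chaperone of the glucocorticoid receptor, went from 25.4 to 273, from 29.5 to 422 and from 18.8 to 414 CPM. Glul (glutamine synthetase) went from 49.5 to 399, from 106 to 1579 and from 22.8 to 426 CPM. The summed level of the list was 339 to 440 CPM in the day 0 libraries and 2067 (shControl), 3644 (shNFIB) and 2870 (shMLL1) CPM at day 7. Both knockdown libraries were above shControl at day 7 in this sum and in Agt, but in a different order. The largest excess in the sum was that of Glul in shNFIB and of Tsc22d3 in shMLL1 cells. Gene by gene, Fkbp5, Glul, Klf9 and Mt1 were above shControl in both libraries. Zbtb16 was below it in both (4.50 and 6.31 against 42.5 CPM), and the other listed genes were above in 1 line and below in the other.

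**Figure D4:**
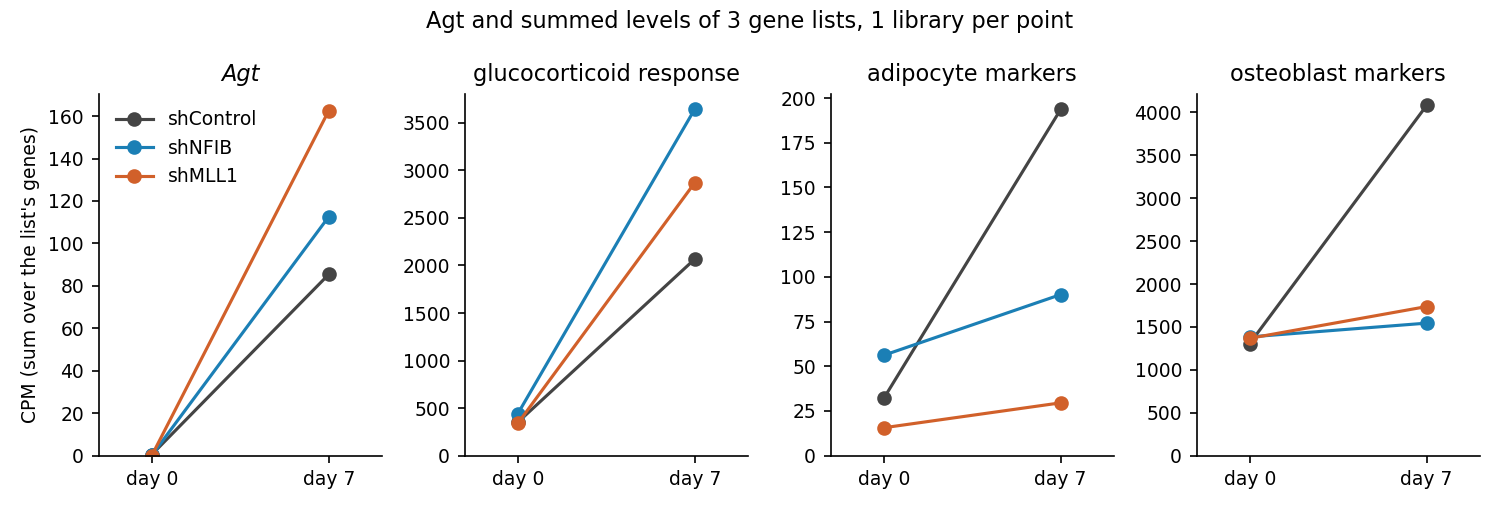
CPM of Agt and CPM summed over the 10 glucocorticoid response, 8 adipocyte and 8 osteoblast genes (panels, each with its own linear axis from 0) at day 0 and day 7, with 1 library per point. Agt and the glucocorticoid list are high at day 7 in all 3 lines, and the adipocyte and osteoblast sums are highest in shControl cells at day 7.

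Markers of the cell types that the culture could form were read in the same libraries. Of all genes tested, 16.8% were called higher and 16.6% lower over the 3 lines, and 6.09% and 6.78% over the knockdown lines. Of 8 adipocyte markers, 7 were above 3 reads in shControl cells at day 7, and of the 6 tested 5 rose over the 3 lines and 1 of 3 tested, Cfd, over the knockdown lines. Of those 5, all but Pparg had at most 7 reads in each day 0 library and passed the filter through day 7. Cfd had 0 and 2129 reads and Lpl 6 and 1084 in shControl cells at day 0 and day 7, and at day 7 Cfd had 22 and 45 reads and Lpl 22 and 4 in shNFIB and shMLL1 cells. Pparg, the master regulator of fat cells, was at 27.1 and 42.0 CPM at day 0 and day 7 in shControl, 52.2 and 84.2 in shNFIB and 12.0 and 20.9 in shMLL1 cells, and rose by 0.70 over the 3 lines (adjusted p = 0.0238) but did not pass over the knockdown lines (adjusted p = 0.160). Fabp4 lay between 3.58 and 4.84 CPM in all 6 libraries, and the defining marker Adipoq had at most 1 read. The summed adipocyte level was 15.6 to 56.1 CPM at day 0 and 194, 90.1 and 29.5 CPM at day 7 in the same order. The osteoblast sum was 1307 to 1383 CPM at day 0 and 4081 CPM in shControl, 1544 in shNFIB and 1737 in shMLL1 cells at day 7. Of 8 osteoblast markers, 5 were tested over the 3 lines and 1 rose, the alkaline phosphatase gene Alpl (4.44), which passed the filter only through its day 7 libraries and was not tested over the knockdown lines. Alpl went from 7 to 111 reads in shControl, 8 to 215 in shNFIB and 0 to 2 in shMLL1 cells. By single libraries, 6 markers were over 2-fold higher at day 7 in shControl cells, 1 in shNFIB cells (Alpl) and 1 in shMLL1 cells (Dlx5), where 23.0%, 16.6% and 25.8% of all genes were. Dlx5, a homeobox factor, went from 12.8 to 52.5 CPM in shControl, 4.43 to 3.69 in shNFIB and 4.04 to 15.9 in shMLL1 cells, and Runx2, the master regulator of osteoblasts, from 32.8 to 117, 31.4 to 30.4 and 32.2 to 35.3 CPM. Ibsp had 0 reads throughout.

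Markers of other cell types, among them those that carry angiotensin receptors, did not move in 1 direction. The calls below stand beside 16.8% of all genes tested called higher and 16.6% lower over the 3 lines. Of 7 endothelial markers, Cdh5, Kdr, Tie1 and Emcn had under 10 reads in every library, and the sum was 12.1 to 27.6 CPM at day 0 and 3.54 to 6.77 CPM at day 7. Both tested, Vwf and Tek, fell over the 3 lines (adjusted p = 0.0389 and 0.0350) and did not pass over the knockdown lines (adjusted p = 0.133 and 0.160). Tek had 566 and 77 reads at day 0 and day 7 in shControl, 795 and 143 in shNFIB and 91 and 66 in shMLL1 cells. Pecam1, which was not tested, had 5 and 7, 6 and 3, and 3 and 19 reads in the same order. Of 5 macrophage markers, Adgre1 had 0 reads, and the sum was 1.58 to 2.65 CPM at day 0 and 4.53 to 8.40 CPM at day 7, mostly Cd68, which rose over the 3 lines (1.80, adjusted p = 0.00642; 0.0582 over the knockdown lines). Of 8 pericyte and smooth muscle markers, Kcnj8 and Abcc9 had 0 reads, and the sum was 1606 to 2329 CPM at day 0 and 627 to 715 CPM at day 7. Acta2, which carried most of that sum at day 0, was at 1273 to 1516 CPM at day 0 and at 130 to 255 CPM at day 7. Of 6 tested over the 3 lines, Acta2 and Cspg4 fell (-3.02 and -2.58, adjusted p = 0.000941 and 0.000703). Myh11, higher by 2.74, had 3 to 4 reads at day 0 and 20 to 24 at day 7, and passed the filter on low counts only through the day 7 libraries. Pdgfrb was higher at day 7 in each line but did not pass (0.66, adjusted p = 0.137). Of 7 mesenchymal markers, 6 had at least 10 reads in a library, Nt5e being the exception, and their sum was 6293 to 13992 CPM at day 0 and 4271 to 6108 CPM at day 7. Of these 6, Vim and Thy1 fell over the 3 lines (-1.12 and -1.01, adjusted p = 0.0289 and 0.00965) and did not pass over the knockdown lines (adjusted p = 0.205 and 0.102). Against the sum, Pdgfra rose from 174 to 321 CPM in shControl, 144 to 342 in shNFIB and 57.4 to 614 in shMLL1 cells (1.81, adjusted p = 0.0311, and 2.29, adjusted p = 0.0368 over the knockdown lines). The part of any of these cell types in the levels of Agt and Enpep was not tested.

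Genes with the profile most like that of Agt were found by the root mean square (RMS) difference of log2(CPM + 0.5) profiles over the 6 libraries, each centered on its own mean, among 16659 other genes. They were Sult1a1 (RMS difference 0.394), Hif3a (0.461), Gdpd2 (0.603), Clca3a1 (0.697) and Aldh1a1 (0.740). Sult1a1, a phenol sulfotransferase, had at day 0 and day 7 9 and 4854 reads in shControl, 12 and 3518 in shNFIB and 7 and 4062 in shMLL1 cells. Hif3a, a hypoxia-inducible factor subunit, had 0 reads in the day 0 libraries and 3178, 1664 and 2768 at day 7. Aldh1a1, which makes retinoic acid, has close paralogs, so reads that match more than 1 of them may have been lost to the mapping quality filter. The genes most like Enpep were Man2a2 (0.111), a Golgi mannosidase, Pdk2 (0.134), Hoxaas2 (0.153), B4galnt1 (0.156) and Ogn (0.163). Ogn, a matrix proteoglycan, was at 681 and 1682 CPM in shControl, 558 and 1376 in shNFIB and 191 and 1057 in shMLL1 cells, and like Enpep was lowest in shMLL1 cells at day 0. These genes were chosen for their likeness, so their levels are a description.

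The genes next to Agt and Ace on the chromosome were read as well, chosen by position after the values of the members were known. Capn9, a calpain 6404 bases from Agt, had 2 and 42 reads at day 0 and day 7 in shControl, 1 and 87 in shNFIB and 1 and 79 in shMLL1 cells. Cog2, a Golgi tethering subunit 4525 bases from Agt on its other side, was at 42.6 to 44.3 CPM at day 0 and at 53.9 to 72.5 CPM at day 7. Cyb561, a cytochrome 14608 bases from Ace, had 2 and 19, 1 and 20, and 4 and 109 reads in shControl, shNFIB and shMLL1 cells. Capn9 and Cyb561 thus had more reads at day 7 in each line, and the flanking gene on the other side of Ace had 0 reads in all 6 libraries.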

How the data were processed

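Total RNA of C3H10T1/2 cells was sequenced by the authors as paired reads of 100 bp. According to their methods and processing notes, reads were trimmed with Trimmomatic 0.39, aligned to GRCm38 (mm10) with HISAT2 2.2.1, filtered with SAMtools 1.12 for a mapping quality over 30, freed of PCR duplicates and counted per Ensembl gene with HTSeq 0.11.1. The values the authors deposited are these raw counts, without normalization; the annotation release and strand setting are not given in the sources used here, so overlapping genes on opposite strands are uncertain. No row of the table was left without a gene. Total counts were 21608680 to 34774066 per library, with TMM factors of 0.908 to 1.13.

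Counts were scaled by TMM over the 6 libraries and given as CPM. Day and line effects were fitted in edgeR 4.0.16 (R 4.3.3) by the quasi-likelihood test on genes kept by filterByExpr, with adjusted p under 0.05 by Benjamini-Hochberg over all genes; the fit over 6 libraries had 2 residual degrees of freedom and a biological coefficient of variation (BCV) of 0.281, and that over the 4 knockdown libraries had 1 and 0.326. The deviations of the days of a line from the day means correlated over 16660 genes (0.427 in shControl, 0.429 in shNFIB, 0.274 in shMLL1), and both days of a line are the same cells, so the line was a block. Since each condition has 1 library, p-values measure the spread between lines or days and not between cultures. Pairs of single libraries were compared without a test, by the CPM ratio with an exact Clopper-Pearson 95% interval, and called over 2-fold with at least 10 counts in either library; 3 counts were taken as the floor. Reads are not independent molecules, so intervals and floors cover counting error only. The same intervals were used for differences in response, from the exact conditional odds ratio (scipy 1.17.1, Python 3.11.15).

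Gene positions and exon lengths came from GENCODE M21 on GRCm38, in which 260 genes of the table had no entry, and promoters from RefSeq; all 118 listed symbols matched. The members and gene lists were chosen with earlier results of these data known, so the rise of Agt is given without a p in any fit. The rule for names took every member, all genes of the angiotensin and angiotensin II response lists, up to 4 genes of highest mean CPM in other lists, and the 5 genes most like each member with a mean of at least 10 counts; genes named for lack of reads, Hsd11b2, Cebpb and others below the top 4, were added after their values were seen. Some listed genes count in the list totals but are not reported here by name. The steps were tested on simulated counts. Alternatives were DESeq2 1.42.0 size factors or test, library size alone, no filter, no block, a line left out, an exact test at an assumed BCV of 0.2 or 0.4, and a prior count of 2.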

Additional observations from a re-analysis of the deposited data

Results flagged for a closer look

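The response of 2 genes of the angiotensin pathway went in opposite directions in different lines, with counting intervals on opposite sides of 0. How many of all genes did the same was not counted, so no trait of the pathway is read from these 2 genes. Mtus1, whose product binds the type 2 angiotensin receptor, had a log2 ratio of day 7 over day 0 of 0.46 in shControl cells (95% counting interval 0.25 to 0.66), 2.04 in shMLL1 cells (1.84 to 2.25) and -0.97 in shNFIB cells (-1.23 to -0.71), for 346 and 453, 256 and 853, and 380 and 182 reads. Kng1, the kininogen gene, had 0.96 in shNFIB cells (0.50 to 1.43) and -2.76 in shMLL1 cells (-3.49 to -2.10), for 61 and 111 and for 176 and 21 reads. With 1 library per condition, the difference between lines was not tested against the spread between cultures.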

How the results depend on the processing

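The fitted rise of Agt, which has no test here, lay between 10.35 and 10.53 on the log2 scale over the knockdown lines under 5 alternatives and between 8.17 and 10.35 over the 3 lines under 8. Enpep decided the other counts. Over the 3 lines the number of members called besides Agt was 1, but 0 with no replicate block, and 0 to 1 when a line was left out (0 without shControl). Over the knockdown lines, with Agt left aside for its selection, Enpep was not called, but it was with no filter on low counts and by DESeq2's test. The adjusted p of Enpep over these alternatives ranged from 0.00472 to 0.185. The block changed no other call of a member. In single libraries, the members over 2-fold were 2 in shControl and 2 in shNFIB cells over time, but 1 and 1 by the exact test at an assumed BCV of 0.4, and 2 in shMLL1 cells, but 4 with no filter. Where Agt is counted over time, the count only restates how it was selected. Against shControl, there was 1 in shNFIB cells at day 0, but 2 with no filter, 0 at a BCV of 0.2 and 0 at 0.4; 0 at day 7, but 1 with no filter; 2 in shMLL1 cells at day 0, but 0 at a BCV of 0.4; and 0 at day 7, but 1 with library size alone and 1 with no filter. By DESeq2's test, the difference of Agt reversed to -1.03 for shMLL1 against shControl (adjusted p = 0.967) and to -0.091 for shMLL1 against shNFIB (adjusted p = 0.978). The causes were not tested. Genes called between lines numbered 63, 5 and 80 for shNFIB and shMLL1 against shControl and shMLL1 against shNFIB, but 688, 526 and 1097 with no filter, 600, 401 and 1148 by DESeq2's test, and 533 and 183 for the first 2 when the line not compared was left out. The day effect called 5556 genes over 3 lines and 2043 over the knockdown lines, where no filter gave 3488 and no block 995. The exact test at an assumed BCV is a call by a test, whereas the main counts of single libraries are genes over 2-fold without one, an unlike measure. At a BCV of 0.4 the exact test called 680, 805 and 1575 genes over time in shControl, shNFIB and shMLL1 cells. Against shControl at day 0 and day 7 it called 149 and 219 in shNFIB and 160 and 111 in shMLL1 cells. At 0.2 the latter were 781, 1607, 1564 and 951. Genes over 2-fold in the main setting numbered 6374, 4964 and 7792 over time. Against shControl they numbered 2152, 3570, 3286 and 2661. With no filter there were 12878, 11080 and 14851 over time and 8216, 9633, 9867 and 9154 against shControl. Over these alternatives the pathway genes past 2-fold, or called by the exact test, numbered 0 to 8 in shControl, 1 to 8 in shNFIB and 2 to 12 in shMLL1 cells over time, and 0 to 9 against shControl. Over the knockdown lines, 1 pathway gene was called with library size alone or no block. Depth limits Agtr1a, Agtr2, Ace and Agt at day 0, which had at most 16 reads.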

Other observations

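Other steroid-related genes, chosen after their values were seen, had unequal levels in single libraries of the lines, and none passed edgeR's test of lines. Zbtb16, a transcription factor gene induced by glucocorticoids, had 0 reads at day 0 in every line and 1296 reads in shControl, 133 in shNFIB and 154 in shMLL1 cells at day 7. Hsd11b1, which regenerates active glucocorticoid, went from 1415 to 1170 reads in shControl cells, from 45 to 672 in shNFIB cells and from 547 to 772 in shMLL1 cells. Glul was at 1579 CPM in shNFIB cells at day 7, against 399 CPM in shControl and 426 CPM in shMLL1 cells. In edgeR's quasi-likelihood fit over both days, Zbtb16 had an adjusted p of 0.117 for shNFIB and 0.184 for shMLL1 against shControl, Glul of 0.162 for shNFIB, and Hsd11b1 of 0.342 for shNFIB and 0.776 for shMLL1. Each of these values comes from 1 library, and the spread between cultures is not known.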
